A study of Mus musculus with 12 samples.

Results

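The 8 genes Btc, Eps8l1, Dusp8, Arl6, Anp32a, Xlr3b, Xlr4a and Lrrc30 were followed across retinas that had received nanoparticles, because earlier values of these same arrays had shown them lower in particle-injected than in saline-injected eyes. They were read by 12 probes of the 39429 non-control probes of a mouse whole-genome array, on which 19751 gene symbols could be named. Xlr3b, Xlr4a, Anp32a and Arl6 had 2 probes each and the other 4 genes 1 each. Of the 12 probes, 11 were among the 28428 probes kept for testing, each with Cy5 or Cy3 well above background throughout at least 1 particle group. The probe left out was Xlr4a probe 2. Since the ratio of particle to saline chose the genes, that ratio is given below as a description with no test, and only differences between particle groups were tested.

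The right eyes of male C57BL/6 mice, 5 weeks old, were injected into the vitreous with gold particles of 100 nm or 20 nm, silicate particles of 100 nm or 20 nm, or phosphate-buffered saline (PBS), and the retinas were taken after 7 days. Each group had 12 mice, and 4 retinas were pooled per tube, so that a value stands for a pool and not for an animal. Every 2-colour array held a particle pool in Cy5 and a PBS pool in Cy3, with 3 arrays per particle group and 12 in all, and the dyes were not exchanged. Each ratio of particle to PBS therefore also holds any difference in how the dyes label a probe. The arrays lay on 3 slides with 1 array of each particle group per slide, so that replicate number, slide and scan coincide, and each group had the same place on every slide. The PBS strain on the silicate arrays carries a running number after C57BL/, and the labels do not say which PBS pool was used on which array.

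The genes belong to separate pathways. Betacellulin, the product of Btc, is a ligand of the epidermal growth factor receptor, Eps8l1 belongs to a family of adaptors that link such receptors to actin, and Dusp8 is a phosphatase that switches off stress-activated MAP kinases. Arl6 is a small GTPase that brings the BBSome, a coat complex of cilia, to membranes, and in humans its loss causes Bardet-Biedl syndrome with degeneration of photoreceptors, cells whose outer segment is a modified cilium. Anp32a is a nuclear protein that binds histones and keeps them from being acetylated. Xlr3b and Xlr4a belong to a cluster of closely related X-linked lymphocyte-regulated genes in mouse, in which Xlr3b is imprinted and expressed from the maternal X. Lrrc30 encodes a leucine-rich repeat protein.

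Promoter windows from RefSeq, on build GRCm38.p6, were available for all 8 genes, as 11 windows that reach from 250 bases before to 50 bases after an annotated start. Arl6 had 2 overlapping windows, of which 1 is shown. The windows shown are those of pairs compared below, Btc with Arl6, and Xlr3b with Xlr4a, whose ratios ran together by probe 1 of each gene. Capitals mark CCAAT or GGGCGG on either strand, so that ATTGG and CCGCCC are marked as well.
Btc, chr5:91402945-91403244, minus strand: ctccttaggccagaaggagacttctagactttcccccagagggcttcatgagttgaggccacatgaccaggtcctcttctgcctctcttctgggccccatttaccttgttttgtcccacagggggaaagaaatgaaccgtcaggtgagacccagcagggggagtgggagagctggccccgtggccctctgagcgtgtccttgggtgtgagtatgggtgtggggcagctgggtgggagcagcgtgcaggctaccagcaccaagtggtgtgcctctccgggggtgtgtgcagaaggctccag
Arl6, chr16:59639360-59639659, minus strand: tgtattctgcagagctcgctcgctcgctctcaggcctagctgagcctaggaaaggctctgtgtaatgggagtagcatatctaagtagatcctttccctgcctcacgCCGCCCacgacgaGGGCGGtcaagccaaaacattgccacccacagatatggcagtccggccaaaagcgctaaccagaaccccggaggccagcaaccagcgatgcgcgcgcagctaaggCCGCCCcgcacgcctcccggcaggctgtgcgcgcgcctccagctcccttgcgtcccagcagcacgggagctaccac
Xlr3b, chrX:73191929-73192228, plus strand: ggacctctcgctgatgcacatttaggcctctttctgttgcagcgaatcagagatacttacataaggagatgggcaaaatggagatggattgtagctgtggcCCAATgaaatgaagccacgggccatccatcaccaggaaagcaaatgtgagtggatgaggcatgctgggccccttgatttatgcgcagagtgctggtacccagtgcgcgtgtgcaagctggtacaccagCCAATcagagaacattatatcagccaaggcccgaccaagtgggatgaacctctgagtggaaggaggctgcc
Xlr4a, chrX:73082458-73082757, minus strand: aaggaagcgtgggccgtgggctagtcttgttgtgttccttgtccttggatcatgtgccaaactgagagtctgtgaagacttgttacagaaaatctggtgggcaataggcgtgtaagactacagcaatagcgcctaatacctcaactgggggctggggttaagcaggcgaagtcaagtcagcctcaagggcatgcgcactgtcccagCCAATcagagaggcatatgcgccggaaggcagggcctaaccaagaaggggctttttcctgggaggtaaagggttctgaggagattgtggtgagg
Motifs were searched on both strands: the CCAAT box, the TATA box as TATAAA, and the GC box as GGGCGG, with no overlap between them in these windows. Over all 32851 windows of that length, 37.4% held CCAAT, 13.6% TATAAA and 35.7% GGGCGG. The Btc window held none of them and had 5 CpG sites, while the Arl6 window shown held GGGCGG 3 times and had 24 CpG sites, against a median of 7 over all windows. The other Arl6 window, chr16:59639290-59639589, held GGGCGG 3 times and CCAAT 1 time and had 26 CpG sites. The Xlr3b and Xlr4a windows held CCAAT 2 times and 1 time, with 7 and 8 CpG sites. GC content was 60.3% for Btc, 63% for Arl6, 52.3% for Xlr3b and 53.3% for Xlr4a, beside a median of 52.7%. A match is a description of the letters, and the arrays do not read binding.

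Markers of other cell types differed by slide. Rod markers were high in both channels, the mean level of the rod list running from 16.04 to 16.99 in particle pools and from 16.25 to 17.03 in PBS pools (normalized log2 intensity). By slide the PBS level of rods was 16.25 to 16.30 on slide 1, 16.74 to 16.78 on slide 2 and 16.63 to 17.03 on slide 3. Rod median log2 ratios were 0.48 to 0.66 on slide 1. Ganglion cell markers were at a mean PBS level of 11.73 to 11.81 on slide 1, 12.34 to 12.38 on slide 2 and 12.20 to 12.32 on slide 3. The macrophage and microglia list, with 10 of 11 genes tested, had median log2 ratios of -3.18 to -2.03 on slide 1, 0.26 to 1.12 on slide 2, and on slide 3 -0.70 and -0.39 with gold but 3.59 and 3.55 with silicate. The mean PBS level of that list was 13.60 to 13.63 on slide 1, 9.20 to 9.22 on slide 2 and 10.06 to 10.60 on slide 3. Neutrophil markers, with 4 of 5 genes tested, were at a mean PBS level of 15.10 to 15.19 on slide 1, against 7.83 to 8.01 on slide 2 and 8.25 to 9.52 on slide 3. The neutrophil median log2 ratios were -4.63 to -4.30 on slide 1. On slide 2 they were -0.09 and 0.11 with gold but 2.36 and 2.84 with silicate. On slide 3 they were -0.25 and -0.12 with gold but 4.52 and 3.77 with silicate. In the PBS channel pigment epithelium and melanocyte markers, with 9 of 10 genes tested, were lowest on slide 1. Their mean PBS level was 9.23 to 9.48 on slide 1, 10.44 to 10.67 on slide 2 and 11.57 to 11.64 on slide 3. Their median log2 ratios were 1.43 to 3.05 on slide 1, 0.12 to 1.68 on slide 2 and -0.39 to 0.77 on slide 3. Lens markers, with 14 of 14 genes tested, were at a mean PBS level of 10.52 to 10.66 on slide 1, 12.95 to 13.05 on slide 2 and 12.28 to 12.40 on slide 3. The slides are therefore given beside most ratios of the chosen genes, and as an alternative the 2 silicate arrays of slide 3 were left out. The silicate arrays of slide 2 stayed in, although their neutrophil ratios were also high. The part of these markers in the differences between gold and silicate was not tested. In pooled tissue, fewer cells of a type and less RNA per cell cannot be told apart.

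All 12 probes had a mean log2 ratio below 0. The choice of genes fixes this for the probes that led to it, and favours it for a gene's other probe. For 6 probes of 5 genes (Eps8l1, Anp32a, Dusp8, Lrrc30 and both probes of Xlr3b) the ratio was below 0 on each of the 12 arrays, a pattern held by 2.31% of the 28428 kept probes. For Anp32a probe 1 and Xlr3b probe 1 each Cy5 level also lay below each Cy3 level, as for 0.204% of kept probes. By the fit reported the means ran from -0.94 ± 0.47 (SD, 12 arrays) for Xlr3b probe 1 to -0.17 for Xlr4a probe 2 and for Anp32a probe 2, and with processed signals Lrrc30 was lower than Xlr3b probe 1, at -1.72 against -1.10. Nothing is read from these shares, because the genes were picked from the same ratios.

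**Figure D1:**
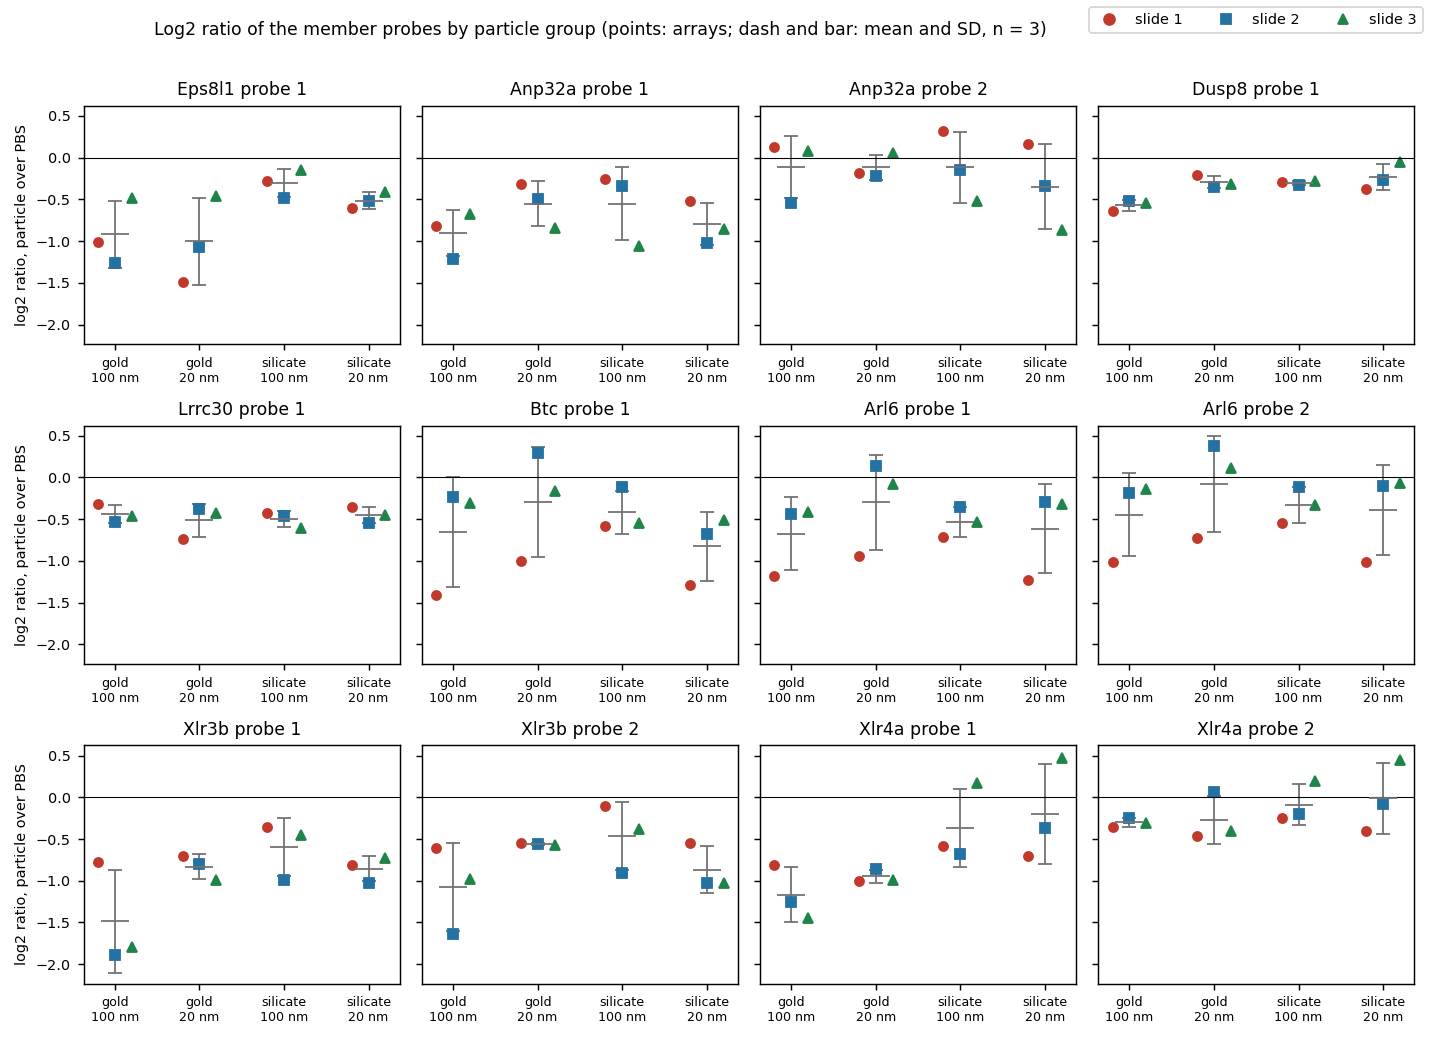
Log2 ratio of particle over PBS (vertical axis) of the 12 probes in the 4 particle groups (horizontal axis), 1 point per array with colour and shape by slide, and mean with SD of 3 arrays. Btc and Arl6 are lowest on slide 1 in every group, while Xlr4a probe 1 lies above 0 only for the silicate arrays of slide 3.

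Btc, the growth factor ligand, was low mainly on slide 1. Its log2 ratios on slides 1, 2 and 3 were -1.41, -0.24 and -0.31 with gold 100 nm, -1.0, 0.29 and -0.16 with gold 20 nm, -0.58, -0.12 and -0.55 with silicate 100 nm, and -1.29, -0.68 and -0.51 with silicate 20 nm (probe A_52_P672689). Slide 1 held the lowest value of each group, and the ratio was below 0 on 11 of 12 arrays. Averaged over a slide's 4 arrays, the particle level was 8.36, 8.25 and 8.23 on slides 1, 2 and 3, and the PBS level was 9.43, 8.43 and 8.61 (normalized log2 intensity). The SD between slides was 0.07 in the particle channel and 0.53 in the PBS channel, beside medians over all kept probes of 0.11 in the particle channel and 0.16 in the PBS channel, so that the slides differed in the PBS channel. The mean ratio was -0.55 ± 0.50 (SD, 12 arrays), and without slide 1 it was -0.28. The PBS channel of slide 1 was also the one with high macrophage and neutrophil markers. Pigment epithelium, lens, rod and ganglion cell markers were lowest there. The part of these markers in the Btc and Arl6 ratios was not tested.

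Eps8l1, the adaptor, was lower with every particle and furthest below PBS with gold. Its log2 ratios on slides 1, 2 and 3 were -1.01, -1.26 and -0.48 with gold 100 nm, -1.49, -1.07 and -0.45 with gold 20 nm, -0.28, -0.48 and -0.15 with silicate 100 nm, and -0.61, -0.52 and -0.41 with silicate 20 nm (probe A_52_P37757). On each slide both gold arrays lay below both silicate arrays, on slide 3 narrowly, at -0.48 and -0.45 against -0.15 and -0.41. Over all slides the 2 materials overlapped. The mean was -0.92 ± 0.40 with gold 100 nm, -1.0 ± 0.52 with gold 20 nm, -0.31 ± 0.17 with silicate 100 nm and -0.51 ± 0.10 with silicate 20 nm (SD, n = 3 each). The particle level ran over 7.33 to 8.80 and the PBS level over 8.71 to 9.33, which overlap, and both channels were well above background on all 12 arrays.

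Dusp8, the MAP kinase phosphatase, had the narrowest range among the probes well above background in both channels on all arrays. Its log2 ratios on slides 1, 2 and 3 were -0.64, -0.52 and -0.55 with gold 100 nm, -0.21, -0.35 and -0.32 with gold 20 nm, -0.29, -0.33 and -0.28 with silicate 100 nm, and -0.37, -0.27 and -0.06 with silicate 20 nm (probe A_51_P263246). The 3 gold 100 nm arrays lay below the other 9, a separation that Dusp8 alone showed among the 11 probes and that 0.179% of all kept probes held. Since Dusp8 had been named partly for its values with gold 100 nm, nothing is read from this share. The mean over 12 arrays was -0.35 ± 0.16 (SD), or 1.27-fold lower. Its slide means were close, at -0.38, -0.37 and -0.30, although the PBS level itself moved between slides, at 13.26, 13.32 and 12.94.

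Arl6, the ciliary GTPase, followed the slides as Btc did. With probe 1 (A_55_P2059382) its log2 ratios on slides 1, 2 and 3 were -1.18, -0.43 and -0.41 with gold 100 nm, -0.94, 0.13 and -0.08 with gold 20 nm, -0.71, -0.35 and -0.53 with silicate 100 nm, and -1.23, -0.30 and -0.31 with silicate 20 nm. The slide 1 arrays ran from -1.23 to -0.71 and the other 8 arrays from -0.53 to 0.13, without overlap. The particle level of probe 1 averaged 13.81, 13.70 and 13.64 on slides 1, 2 and 3, and its PBS level 14.82, 13.93 and 13.97. As for Btc, the slides differed in the PBS channel. The mean ratio of probe 1 was -0.53 ± 0.42 (SD, 12 arrays), and -0.29 without slide 1.

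Arl6 probe 2 (A_66_P139974) ran with probe 1 almost exactly, at a correlation of 0.997 over the 12 arrays, which share slides. Its ratio lay above that of probe 1 on all 12 arrays, so that the difference of probe 1 minus probe 2 was -0.22 ± 0.04 (SD, 12 arrays). The slide means of probe 2 were -0.83, -0.01 and -0.10, its overall mean -0.31 ± 0.43, and without slide 1 the mean was -0.06. By this probe, then, the lower ratio rested on the 4 arrays of slide 1. The cause of the steady offset between the probes was not tested.

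**Figure D2:**
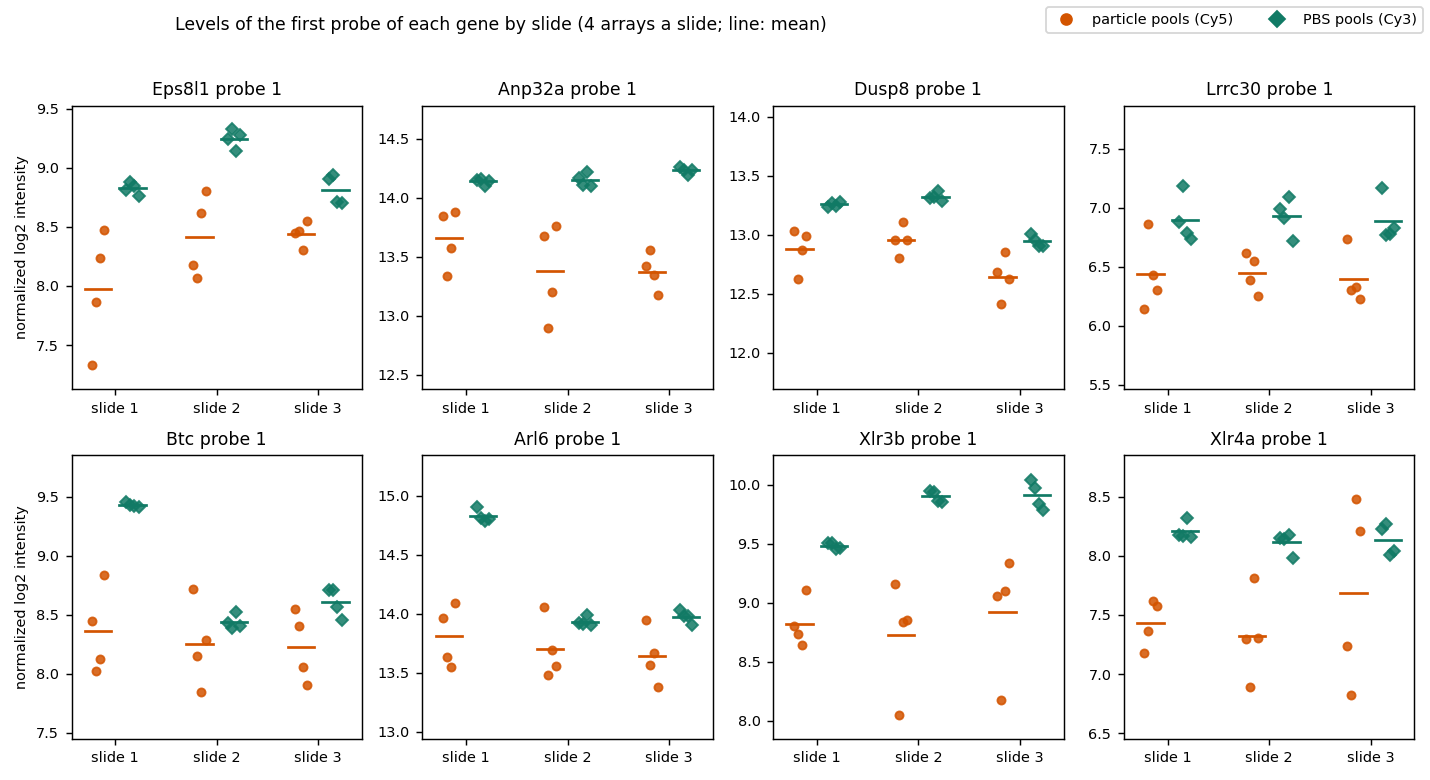
Normalized log2 intensity (vertical axis) of probe 1 of each gene in particle pools (Cy5, circles) and PBS pools (Cy3, diamonds) by slide (horizontal axis), 4 arrays per slide and channel, with a line at the mean. The particle levels of Btc and Arl6 overlap between the slides, while their PBS levels stand higher on slide 1 than on slides 2 and 3.

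Anp32a, the histone-binding protein, gave different answers with its 2 probes. With probe 1 (A_55_P2162160) the log2 ratios on slides 1, 2 and 3 were -0.82, -1.21 and -0.68 with gold 100 nm, -0.31, -0.49 and -0.84 with gold 20 nm, -0.26, -0.34 and -1.06 with silicate 100 nm, and -0.52, -1.02 and -0.85 with silicate 20 nm. No group stood apart, and the mean was -0.70 ± 0.32 (SD, 12 arrays). The particle level of this probe ran from 12.90 to 13.88, while the PBS level was steady, from 14.10 to 14.26 over all arrays. Its SD between slides in the PBS channel, 0.05, stood at percentile 8.2 of all kept probes.

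With Anp32a probe 2 (A_51_P399071) the log2 ratios on slides 1, 2 and 3 were 0.13, -0.54 and 0.07 with gold 100 nm, -0.18, -0.22 and 0.06 with gold 20 nm, 0.32, -0.14 and -0.52 with silicate 100 nm, and 0.16, -0.34 and -0.86 with silicate 20 nm. They were below 0 on 7 of 12 arrays, with a mean of -0.17 ± 0.35 (SD) that was -0.31 without slide 1, -0.10 without slide 2, -0.10 without slide 3 and -0.06 without the silicate arrays of slide 3. Probe 1 read lower than probe 2 on 11 of 12 arrays, the difference of probe 1 minus probe 2 being -0.53 ± 0.31 (SD), and the probes correlated at 0.57 over the arrays. A lower Anp32a ratio on all arrays was therefore seen with 1 of its 2 probes.

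Xlr3b was lower than PBS on all 12 arrays with both of its probes. With probe 1 (A_55_P1965101) the log2 ratios on slides 1, 2 and 3 were -0.78, -1.89 and -1.80 with gold 100 nm, -0.71, -0.79 and -0.99 with gold 20 nm, -0.35, -0.99 and -0.45 with silicate 100 nm, and -0.81, -1.02 and -0.73 with silicate 20 nm. The 2 lowest values were both gold 100 nm arrays, those of slides 2 and 3. The particle level ran from 8.05 to 9.34 and the PBS level from 9.45 to 10.04, which did not overlap, and the mean ratio corresponds to a 1.92-fold lower level in particle pools.

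Xlr3b probe 2 (A_55_P1959683) gave -0.60, -1.64 and -0.98 on slides 1, 2 and 3 with gold 100 nm, -0.54, -0.56 and -0.57 with gold 20 nm, -0.11, -0.90 and -0.38 with silicate 100 nm, and -0.54, -1.03 and -1.03 with silicate 20 nm. Its mean was -0.74 ± 0.40 (SD, 12 arrays), or 1.67-fold lower. The probes correlated at 0.83 over the arrays, and probe 1 read lower on 10 of 12, with a difference of probe 1 minus probe 2 of -0.20 ± 0.26. The values of single arrays did not always match, as for silicate 20 nm on slide 3, at -0.73 with probe 1 and -1.03 with probe 2.

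Xlr4a was lower with gold on every slide and with silicate on slides 1 and 2. With probe 1 (A_55_P2124586) the log2 ratios on slides 1, 2 and 3 were -0.81, -1.26 and -1.45 with gold 100 nm, -1.0, -0.86 and -0.99 with gold 20 nm, -0.59, -0.68 and 0.17 with silicate 100 nm, and -0.70, -0.37 and 0.47 with silicate 20 nm. All 6 gold arrays lay below all 6 silicate arrays, a separation that this probe alone showed among the 11 and that 0.281% of all kept probes held. Xlr4a too had been named partly for its values with gold 100 nm, so nothing is read from this share either. The particle level ran from 6.82 to 7.37 with gold and from 7.30 to 8.48 with silicate, and the PBS level hardly moved, from 7.98 to 8.32, so the spread lay in the particle channel. The 2 arrays above 0 are the silicate arrays of slide 3, on which the macrophage list had medians of 3.59 and 3.55 and the rod list, with 10 of 10 genes tested, medians of -0.87 and -0.87. Their part in the Xlr4a ratio was not tested. The mean over 12 arrays was -0.67 ± 0.55 (SD), and -0.82 without those 2 arrays. With the processed signals of the scanner software the mean was -1.09, and in the authors' deposited value table -1.10.

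Xlr4a probe 2 (A_55_P2124582) was well above background on 2 arrays in the particle channel and on 5 in the PBS channel, and was not tested. Its ratio ran from -0.47 to 0.45, with a mean of -0.17 ± 0.28 (SD, 12 arrays), and correlated with that of probe 1 at 0.80. Its 2 highest values, 0.19 and 0.45, were those of the same silicate arrays of slide 3. Members of the Xlr cluster are near copies of each other, so a probe may also bind the RNA of another member, and each Xlr value is uncertain in that respect.

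**Figure D3:**
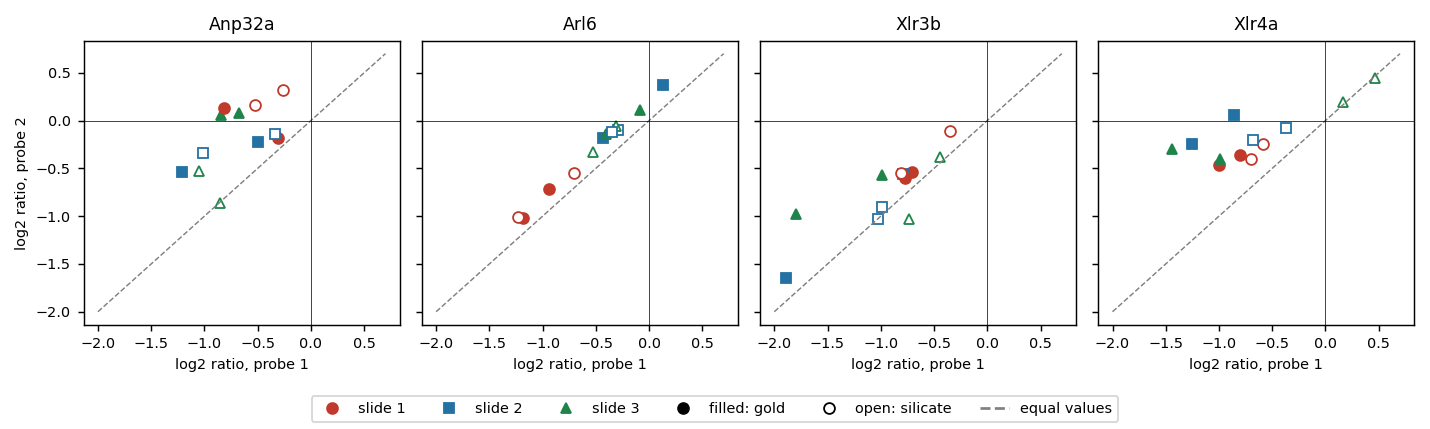
Log2 ratio of probe 2 (vertical axis) against that of probe 1 (horizontal axis) for the 4 genes with 2 probes, 1 point per array, with shape by slide, filled for gold and open for silicate, and a dashed line at equal values. Arl6 points run parallel to the line with an offset of 0.22, while for Anp32a probe 2 lies above the line on 11 of 12 arrays and scatters about 0.

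Lrrc30 was read close to background. Its log2 ratios on slides 1, 2 and 3 were -0.32, -0.53 and -0.46 with gold 100 nm, -0.74, -0.37 and -0.43 with gold 20 nm, -0.43, -0.46 and -0.60 with silicate 100 nm, and -0.36, -0.54 and -0.45 with silicate 20 nm (probe A_55_P2000574). The raw median signal was 68 to 104 in the particle channel and 79 to 119 in the PBS channel. The particle channel was well above background on 4 arrays, none of them silicate 100 nm, and the PBS channel on all 12. For silicate 100 nm the level was at least 1.26-fold lower, taking the particle pools at the higher of the probe's own signal and the lowest signal well above background. The mean of -0.47 ± 0.12 (SD, 12 arrays) was computed with an offset of 50 added after background correction. With the processed signals of the scanner software it was -1.72, and in the authors' deposited value table it was -1.72 as well. The direction was the same in all 3, and the size of the Lrrc30 ratio is not settled by these arrays.

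Differences between particle groups were tested in 7 comparisons for each of the 11 kept probes, 77 tests in all, with limma and Benjamini-Hochberg adjustment over all kept probes. These differences do not contain the dye effect of a probe. They are still not wholly independent of the choice of genes, since Dusp8, Xlr3b, Xlr4a and Anp32a had been named partly for their values with gold 100 nm and Eps8l1 for those with gold 20 nm. None of the 77 passed limma's adjusted p of 0.05, with or without the slide as a replicate or random block. Counts at an unadjusted p under 0.05, by the fit reported, were 3 of 11 probes for gold minus silicate and 1 for 100 nm minus 20 nm. There were 2 for the difference of the size effects and 2 for gold 100 nm minus gold 20 nm. For silicate 100 nm minus silicate 20 nm there were 0, for gold 100 nm minus silicate 100 nm 5, and for gold 20 nm minus silicate 20 nm 1. The replicate block added Xlr3b probe 1 for gold minus silicate and Btc for the difference of the size effects. It also added both Arl6 probes and Xlr3b probe 2 for gold 100 nm minus gold 20 nm. For gold 20 nm minus silicate 20 nm it added Eps8l1 and Btc. Unadjusted p-values over the whole array were counted only for the fit reported. Over the whole array, 0 of 28426 probes passed for gold minus silicate (0%), with 1445 at an unadjusted p under 0.05, 6 with the replicate block (0.0211%, being 0.0106% lower and 0.0106% higher) and 18 with the random block. For 100 nm minus 20 nm 0 passed in any of these fits (0%), with 291 unadjusted, and for the difference of the size effects 0 passed (0%), with 174 unadjusted. In the 4 comparisons of single groups 0 passed as well (0%), with 233 unadjusted for gold 100 nm minus gold 20 nm, 262 for silicate 100 nm minus silicate 20 nm, 517 for gold 100 nm minus silicate 100 nm and 892 for gold 20 nm minus silicate 20 nm.

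Xlr4a probe 1 had the largest difference between materials by the fit reported, a rank that rested on slide 3. Gold minus silicate was -0.78 (95% interval -1.27 to -0.28, unadjusted p = 0.00592, limma adjusted p = 0.892). It kept its sign within each slide, at -0.26, -0.53 and -1.53 on slides 1, 2 and 3. With the slide as a replicate block the adjusted p was 0.235, and with the slide as a random block 0.19. Without slide 3 the difference was -0.40, beside -0.73 for Eps8l1, and without the silicate arrays of slide 3 it was -0.47, beside -0.49 for Eps8l1. With processed signals it was -1.23 and in the value table -1.31, and it did not pass in either.

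For Eps8l1 the difference between materials had the same direction and did not pass either. Gold minus silicate was -0.55 (95% interval -0.96 to -0.14, unadjusted p = 0.0136, limma adjusted p = 0.892), with -0.80, -0.66 and -0.19 within slides 1, 2 and 3. The adjusted p was 0.176 with the replicate block. Dusp8 had a smaller difference of -0.17 (95% interval -0.31 to -0.02, unadjusted p = 0.0281, limma adjusted p = 0.892), with -0.09, -0.14 and -0.27 within the slides. These 3 probes were the ones with an unadjusted p under 0.05 among the 11. For Xlr3b the interval reached 0, at -0.43 (-0.87 to 0.01) with probe 1, which was -0.25 without slide 3, and -0.15 (-0.58 to 0.28) with probe 2.

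For particle size the difference of 100 nm minus 20 nm had its lowest p with Dusp8. It was -0.17 (95% interval -0.32 to -0.03, unadjusted p = 0.0242, limma adjusted p = 1.00). Within the slides it was -0.18, -0.11 and -0.22, and with median centring the difference was -0.10. Between the sizes of gold the Dusp8 difference was -0.28 (95% interval -0.48 to -0.07, unadjusted p = 0.0132). Dusp8, and Xlr3b below, had been named partly for their values with gold 100 nm, which enter these differences. For Xlr3b the size effect of gold minus that of silicate was -0.91 (95% interval -1.79 to -0.03) with probe 1 and -0.92 (-1.79 to -0.06) with probe 2, and neither passed after adjustment. Gold 100 nm minus silicate 100 nm was -0.89 for Xlr3b probe 1 (95% interval -1.51 to -0.27, unadjusted p = 0.00999, limma adjusted p = 1.00, 0.684 with the replicate block) and -0.61 for probe 2.

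**Figure D4:**
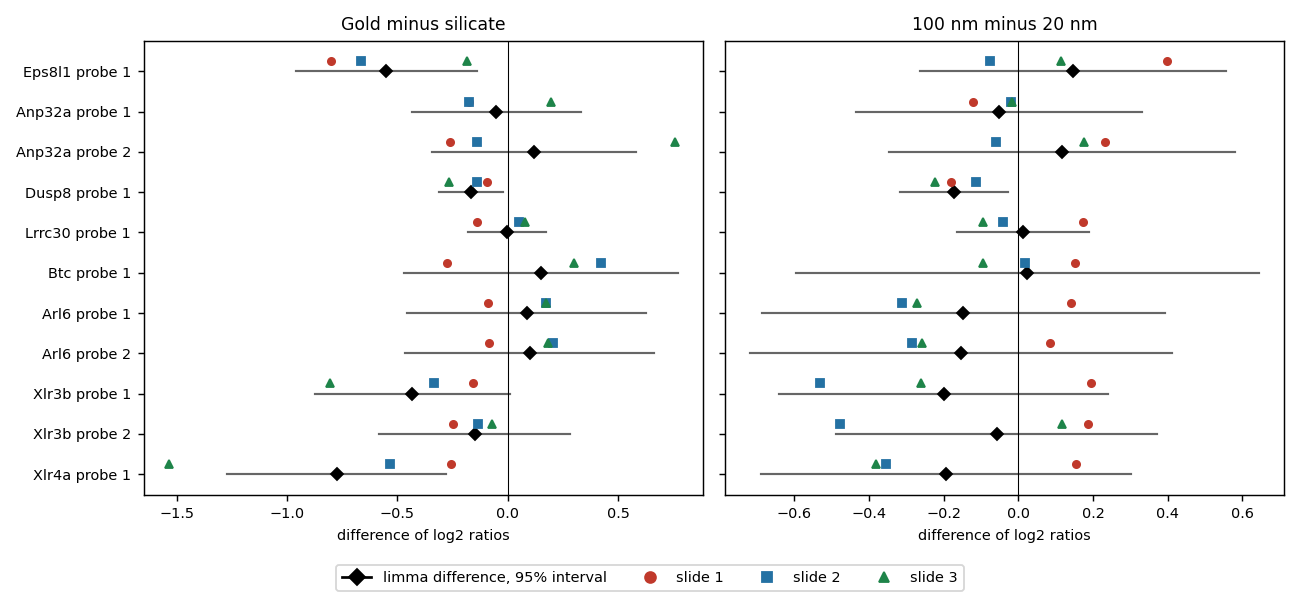
Difference of log2 ratios (horizontal axes) between gold and silicate (left) and between 100 nm and 20 nm (right) for the 11 kept probes, with the 95% interval of limma (diamond and line) and the value within each slide. The gold minus silicate intervals of Eps8l1, Dusp8 and Xlr4a lie below 0 before adjustment, and for these 3 probes all 3 slides fall on the same side. All 3 slides also do so for both probes of Xlr3b, whose intervals reach 0 in this fit, which has no slide block.

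Other differences between the materials were not detectable with 12 arrays. For Btc gold minus silicate was 0.15 (95% interval -0.47 to 0.77), for Arl6 probe 1 0.09 (-0.45 to 0.63) and for Anp32a probe 1 -0.05 (-0.43 to 0.33). These intervals reach to both sides of 0. Nothing is read from the Lrrc30 differences between particle groups, since its particle channel was well above background on 4 of 12 arrays. Gold minus silicate was near 0 for Lrrc30 by the fit reported, 0.43 with processed signals and 0.35 in the value table.

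The ratios of Btc and Arl6 ran together over the arrays. With Arl6 probe 1 the correlation was 0.93, and 0.80 after each slide's mean was removed. Those of Xlr3b probe 1 and Xlr4a probe 1 correlated at 0.63, and at 0.77 after the slide means were removed. With Xlr3b probe 2 in place of probe 1 the values were 0.20 and 0.25. Dusp8 correlated with Xlr4a probe 1 at 0.69, and at 0.67 after that removal. These are descriptions over 12 arrays that share slides and may share PBS pools. Among all other named probes, the 3 most like Arl6 were Ikbip, R3hcc1l and Mlf1, with Pearson correlations of 0.98, 0.96 and 0.94. The 3 most like Btc were Cetn4, Lamtor5 and Vps28, at 0.96, 0.96 and 0.94. The closest to Xlr4a were Slc38a6, Cxcr6 and Hacd1, at 0.94, 0.92 and 0.91, and to Xlr3b Zfp704 at 0.89. Eps8l1 was closest to Zfp451 at 0.93, Anp32a to Speer8-ps1 at 0.92, Dusp8 to Ctdnep1 at 0.90 and Lrrc30 to Iars2 at 0.78. Each partner was picked as the highest of very many correlations over 12 arrays, so nothing is read from their size. Lrrc30 was also close to background.

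Relatives of the 8 genes, in lists drawn up by function with earlier results of these data known, were tested for the mean of the particle groups against PBS. The fit reported takes the arrays as independent although they share slides, so its p-values here do not measure the spread between PBS pools. Over all kept probes 13.9% passed limma's adjusted p of 0.05, 7.89% higher and 6.06% lower, and with the slide as a random block 1.48% and as a replicate block 34% passed, 17.1% higher and 16.9% lower. The split depended on the scaling, with 2243 probes higher and 1722 lower by the fit reported, against 2941 higher and 964 lower with median centring. In the lists of relatives 4 genes passed, 1 higher and 3 lower, none with the random block and 13 with the replicate block. The 4 are Xlr4b, Egfr, Bbs9 and Ift27. Without slide 1, 2 or 3 the lists held 2, 0 and 2 passing genes.

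Xlr4b was the only other Xlr gene with a kept probe, of 8 listed and 6 on the array. Its log2 ratios on slides 1, 2 and 3 were -1.12, -0.58 and -1.13 with gold 100 nm, -1.07, -0.52 and -0.66 with gold 20 nm, -0.81, -0.61 and 0.19 with silicate 100 nm, and -0.97, 0.12 and 0.50 with silicate 20 nm. The silicate arrays of slide 3 were again above 0, as for Xlr4a. It fell by 0.55 on average (SD 0.55, 12 arrays, limma adjusted p = 0.0255, 0.326 with the random block), and its particle channel was well above background on 7 of 12 arrays. The probes of Xlr, Xlr3a, Xlr5a, Xlr5b and Xlr5c were not kept.

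For the ligand Btc, 7 of 10 listed genes of its receptor system were tested, and Egfr, the receptor, was the one that passed. It was higher by 0.41 (SD 0.29, 12 arrays, limma adjusted p = 0.00758, 0.249 with the random block), above 0 on 11 of 12 arrays. Its slide means were 0.23, 0.44 and 0.57 on slides 1, 2 and 3. Its 2 further probes read 0.01 and 0.16 and did not pass. With the replicate block 1 gene of the list passed higher and 3 lower, the 3 being Egf, Tgfa and Epgn, named after their values were seen. Over all kept probes 17.1% passed higher and 16.9% lower with that block. The median of the list was -0.03, with 5 of the 7 below 0, beside a median of -0.01 over all kept probes.

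For Arl6, 13 of 14 genes of the BBSome and of its loading and assembly were tested, and 2 passed, both lower. Bbs9, a BBSome subunit, was at -0.33 ± 0.32 (SD, 12 arrays, limma adjusted p = 0.0331, 0.433 with the random block). Ift27, a small GTPase of intraflagellar transport that acts on BBSome exit from cilia, was at -0.16 ± 0.12 (limma adjusted p = 0.0214, 0.26 with the random block). Its slide means were -0.05, -0.18 and -0.25 on slides 1, 2 and 3. The lowest Bbs9 ratios, -1.10 and -0.74, were those of the silicate arrays of slide 3, where the rod list was also low, and the part of that list in the Bbs9 ratio was not tested. Of the 13, 11 were below 0, with a median of -0.09, beside 14988 of all 28428 kept probes below 0. With the replicate block 3 of them passed, all lower, Bbs4 being the added one, also named after its value was seen. Of all kept probes 16.9% passed lower with that block.

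In the other 3 lists no gene passed. Of the Anp32 and histone chaperone genes 7 of 7 were tested, with a median of 0.02, of the Eps8 family and its partners 4 of 6, with a median of -0.05, and of the MAP kinase phosphatases and their targets 12 of 13, with a median of 0.05. Below 0 were 3 of the 7, 2 of the 4 and 5 of the 12. With the slide as a replicate block 5 genes of these lists passed, where 34% of all kept probes did, 17.1% higher and 16.9% lower. The p-values of that fit leave out the spread between PBS pools, and the ratios hold any dye effect. The 5 genes are named here after their values were seen. They were Ptma, at 0.15 (limma adjusted p with that block 0.00307), Nap1l1, at -0.18 (0.00923), Abi1, at -0.18 (0.00438), Mapk9, at 0.12 (0.0129), and Mapk10, at 0.12 (0.0263).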

How the data were processed

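The members and gene lists were chosen with earlier results of these data known. Named genes were all probes of the 8 genes, the relatives that passed, and the 3 probes most like each gene.

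Scanner files were deposited for every array, with spot values as intensity. Per the file headers the extraction software was version 11.0.1.1 of Agilent Feature Extraction, and per the submitters' processing notes 9.3.2.1. Particle size appears in the labels as nM in one field and as a diameter in nm in the growth protocol, which is followed here. Median foreground and background intensity were deposited by the authors as scanner columns and were background-corrected here (normexp, offset 50). Loess followed within each array, with the 1377 control spots at weight 0. On each array 149 to 257 outlier spots were dropped, and saturated non-control spots numbered 0. The deposited log10 ratio of Cy5 over Cy3 was used only to find the scale of the authors' deposited value table, which holds log2 ratios (slope 3.30 to 3.32 on log10, correlation 0.942 to 0.995 across probes, column medians 0.016 to 0.114). How those columns were centred stays unknown.

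Spots of a probe were averaged, 43020 spots giving 39429 probes. Symbols came through RefSeq accessions and a GRCm38.p6 gene table, with 6279 of 32334 accessions unmatched, the file headers naming mm9 as the annotation build. Channel levels were scaled between arrays by the Aquantile method. Tests used R 4.3.3, limma 3.58.1 and data.table (version 1.17.8), were two-sided and ran on 4 group means over 12 arrays with Benjamini-Hochberg adjustment. The fit was checked on simulated data. The number of arrays limits the precision. The fit reported took the 12 ratios as independent, although arrays of a slide ran together as given below. Its p-values for particle against PBS therefore do not measure the spread between PBS pools. Those for differences between particle groups measure the spread between arrays of a group. With the replicate block, p-values measure the spread within slides. Alternatives were processed signals, median centring, no filter, 1 probe per gene, the value table, each slide left out, the slide as a replicate or random block and, chosen after seeing the data, the silicate arrays of slide 3 left out. The headers show that equal replicate numbers share a slide. Deviations from the group means correlated, across probes, at 0.884 to 0.932 on slide 1, 0.0764 to 0.820 on slide 2 and 0.549 to 0.919 on slide 3. Probe sequences and proteins were not used here.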

Additional observations from a re-analysis of the deposited data

How the results depend on the processing

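The mean ratio of each of the 11 kept probes stayed below 0 under every alternative run, and none of their differences by material, by size or between the size effects passed under any. The mean of Lrrc30 was -1.72 with processed signals and -1.72 in the value table, and that of Xlr4a probe 1 -1.09 and -1.10. Probes passing for the mean of the particle groups against PBS, 3965 by the fit reported, came to 2573 with processed signals, 9668 with the slide as a replicate block (4850 higher and 4818 lower) and 420 with the slide as a random block (362 higher and 58 lower). Leaving out one replicate, which is a slide, gave 252 to 2318. For gold minus silicate the count of 0 became 1 with processed signals, 6 with the replicate block, 18 with the random block and 1 without the silicate arrays of slide 3, an alternative chosen after seeing the data. Over the lists of relatives, 4 genes passed by the fit reported, 13 with the replicate block, 0 with the random block, 7 in the value table and 0 to 2 with one replicate left out. For these changes the cause was not tested, except that leaving out a slide leaves fewer arrays. The replicate block leaves out the spread between PBS pools. In the differences between particle groups the pairing by slide changed no call after adjustment for the 8 genes. It did bring some of their unadjusted p-values under 0.05. The number of arrays and the nearness of Lrrc30 and Xlr4a probe 2 to background limit what can be seen.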
